A study of Homo sapiens with 12 samples.

Results

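FOXO1, FOXO3, IRS1, IRS2, INSR, IGF1R, PIK3CA, PIK3R1 and AKT1 form the line from the insulin and IGF receptors through PI3K and AKT to the FOXO transcription factors. They are 9 of the 19027 gene symbols in the count tables, and each was found by its symbol on 1 transcript. FOXO1 and IRS2 were chosen because their ribosome footprints rose strongly relative to RNA after zotatifin, so their changes are given below as a description without a test. The other 7 genes were taken because they belong to the pathway, though with earlier results of these data known. The question was whether they moved as FOXO1 and IRS2 did.

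The tumours were xenografts of 22Rv1, a human prostate cancer cell line, grown under the skin of male NSG mice that were 6 to 8 weeks old at injection. NSG mice lack lymphocytes but keep fibroblasts, vessels and myeloid cells of their own, so a tumour holds some mouse tissue. Animals were randomised when tumours measured 70 to 100 mm3, and received either zotatifin at 0.3 mg/kg in 5% dextrose or 5% dextrose alone, by injection into the peritoneum. Tumours were frozen 6 h later, and footprints of 24 to 34 nt from the monosome fractions and total RNA were sequenced from each of 3 tumours per treatment, which gave 12 libraries in 4 groups of 3. Zotatifin inhibits eIF4A, the helicase that opens the 5′ leader of an mRNA for the scanning ribosome.

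When insulin or IGF binds, the receptor kinases INSR and IGF1R phosphorylate the adaptors IRS1 and IRS2. These recruit PI3K, a dimer of a regulatory subunit such as that encoded by PIK3R1 and a catalytic subunit such as that encoded by PIK3CA. PI3K makes the lipid that brings AKT1 to the membrane. Active AKT phosphorylates FOXO1 and FOXO3, which are then bound by YWHA scaffold proteins and kept out of the nucleus. In the nucleus FOXO factors switch on genes of cell cycle arrest, stress defence and apoptosis, and in many tissues they also raise transcription of INSR and IRS2, a feedback that restores insulin sensitivity. The PI3K route is a frequent driver of prostate cancer.

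The treatment field of 6 of the 12 samples goes against the sample title, and the titles and column names were used for the groups. Levels are CPM, read counts scaled to library size with TMM factors, and changes are log2 values, zotatifin over vehicle, with their standard error (SE). Rises and falls are therefore relative to the other genes of the same assay, and a change shared by all genes would not show. RNA libraries held 5761921 to 8153674 counts and footprint libraries 838135 to 2013968, the lowest with zotatifin. All 10 prostate epithelium markers were detected in both assays, with summed levels of 3964 to 5268 CPM (vehicle) and 5172 to 6014 CPM (zotatifin) in footprints. Counts that fell to fibroblast markers were lower with zotatifin, at 144 to 269 CPM in summed footprints against 471 to 813 CPM with vehicle, and at 69.7 to 132 CPM in RNA against 216 to 365 CPM. Myeloid markers were lower too in summed footprints, at 29.8 to 55.2 CPM with zotatifin against 65.5 to 299 CPM with vehicle, while in RNA the groups overlapped (10.6 to 19.8 against 15.9 to 48.3 CPM). In the mean, 6 of the 7 were lower in each assay, and 2 of 3 tested fell in footprints. The part of these markers in the results below was not tested, and in bulk tumours fewer cells of a type and less RNA per cell cannot be told apart. The remaining myeloid marker was at 0 in all libraries of the assay, CD14 in footprints and TYROBP in RNA.

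Relative to other genes, FOXO1 carried 3.58 times as many footprints after zotatifin. Its RNA stayed within the range of the vehicle tumours apart from 1 slightly lower library. FOXO1 is the FOXO factor through which insulin acts on gluconeogenesis and cell survival (transcript ENST00000379561, chromosome 13, 40555667 to 40666641, GRCh38.p14). Footprints of FOXO1 stood at 68.3, 67.7 and 71.2 CPM in the vehicle tumours and at 252, 289 and 209 CPM in the zotatifin tumours. All 3 zotatifin libraries lay far above all 3 vehicle libraries, and the lowest of them was 2.94 times the highest vehicle value. The raw footprint counts behind these levels were 112 to 139 with vehicle and 236 to 323 with zotatifin, although the zotatifin libraries were shallower.

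FOXO1 RNA was measured at 17.3, 21.0 and 23.6 CPM with vehicle and at 19.7, 15.9 and 23.3 CPM with zotatifin. The groups overlapped. The log2 change was 1.84 ± 0.13 (SE) in footprints and −0.07 ± 0.19 in RNA. The change in translational efficiency (TE, footprints relative to RNA in one model over the 12 libraries) was 1.95 ± 0.22, a 3.86-fold difference. By size it ranked as rise number 5 of 9544 genes in footprints and as number 8 of 9454 in TE, a place that the choice of the gene presupposes.

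The ratio of footprint to RNA CPM of FOXO1 was 3.95, 3.23 and 3.01 in the vehicle tumours and 12.8, 18.2 and 8.97 in the zotatifin tumours. In the summed counts FOXO1 thus had many footprints per RNA with vehicle, since its ratio was higher than that of 94.3% of the 9454 genes tested. The counted region of each transcript is not stated, which limits this and the later rankings of the ratio between genes. The 3 zotatifin tumours differed from each other more than the vehicle tumours did, with an SD of 0.51 against 0.20 on the log2 ratio.

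**Figure D1:**
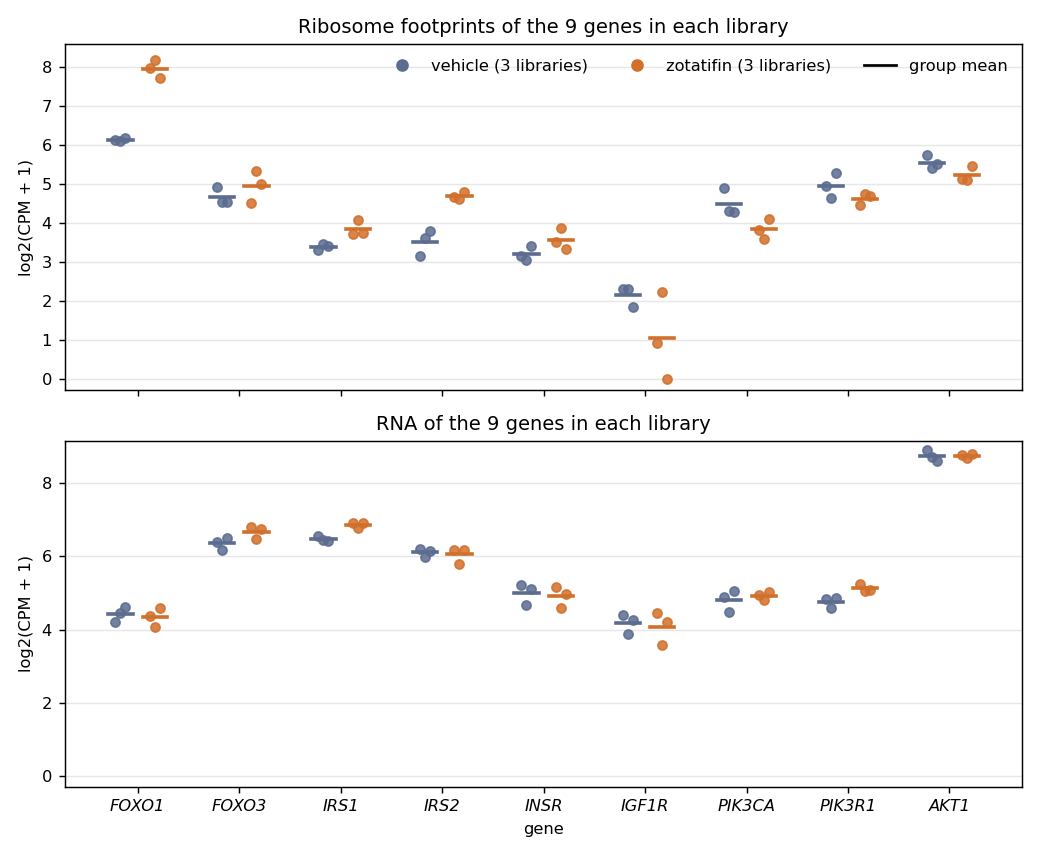
Levels of the 9 genes as log2(CPM + 1), footprints in the upper panel and RNA in the lower panel, with 1 point per library (3 vehicle in blue, 3 zotatifin in orange) and a bar at each group mean. FOXO1 and IRS2 footprints with zotatifin lie above all vehicle libraries (209 to 289 against 67.7 to 71.2 CPM for FOXO1), while their RNA groups overlap.

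The authors' deposited TE table gives FOXO1 a much smaller change than the summed counts do. It lists an estimate of 0.27 for FOXO1 once turned to the log2 scale, with an FDR of 0.519 in the authors' model, so FOXO1 was not called there. The counts gave 1.95, and this gap of 1.68 was the second largest of 9432 genes present in both (rank 2). The median absolute gap was 0.05, so for most genes the tables gave nearly the same value. Gaps above 1 were found for 8 genes and above 0.5 for 33. SIPA1L3 (2.48), LMO2 (1.43), CARM1 (1.35) and TTLL11 (1.22) made up the 5 largest together with FOXO1. Each of the 5 has a larger rise in the summed counts than in the authors' deposited table. The counted region of each transcript and any position filter of the authors' model are not stated in the labels or file headers, and the reason for the gap was not tested.

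**Figure D2:**
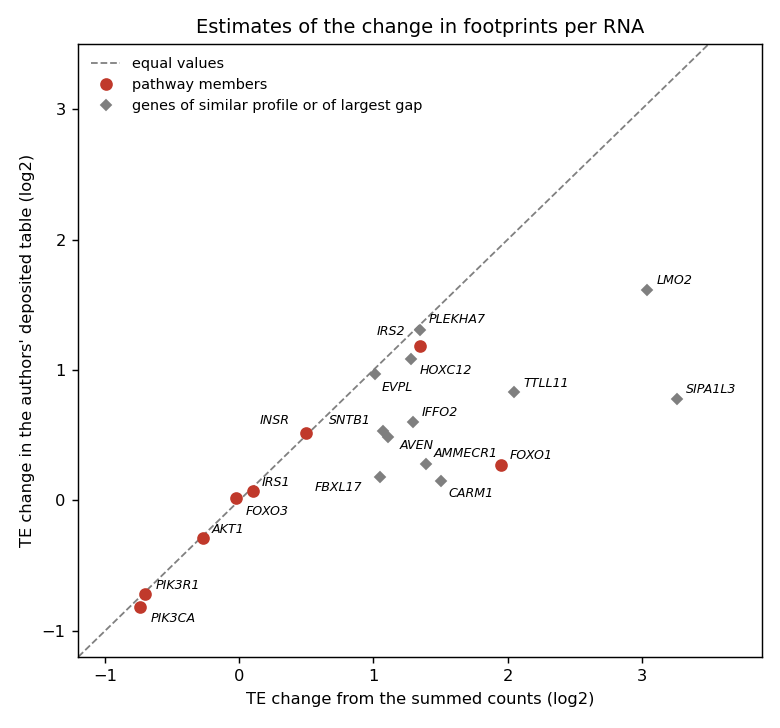
Change in TE (log2) fitted here from the deposited counts (horizontal axis) against the value in the authors' deposited table (vertical axis), with the 8 members that could be fitted in red and other named genes in grey, and a dashed line where both are equal. FOXO1 lies far below the line (1.95 against 0.27) and IRS2 close to it (1.35 against 1.18).

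IRS2 followed the same direction at a lower footprint count. IRS2 is the adaptor that carries insulin signalling in liver and pancreatic islets (ENST00000375856, chromosome 13, 109752695 to 109786583). Footprints of IRS2 stood at 7.86, 11.1 and 12.7 CPM with vehicle and at 24.3, 23.3 and 26.5 CPM with zotatifin. The lowest zotatifin library was 1.83 times the highest vehicle library. These levels rest on few raw footprints, 16 to 20 with vehicle and 19 to 41 with zotatifin.

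IRS2 RNA was measured at 72.7, 62.5 and 70.4 CPM with vehicle and at 71.6, 54.5 and 71.7 CPM with zotatifin, and the groups overlapped. The log2 change was 1.25 ± 0.26 in footprints, −0.05 ± 0.14 in RNA and 1.35 ± 0.29 in TE, the last a 2.54-fold difference. The authors' deposited TE table lists 1.18 for IRS2 on the log2 scale. Unlike FOXO1, IRS2 passed an FDR of 0.05 there, a call on a gene chosen for its rise. The ratio of footprints to RNA was 0.108, 0.178 and 0.181 with vehicle and 0.339, 0.427 and 0.370 with zotatifin. IRS2 therefore began near the other end from FOXO1: only 3.10% of the genes tested had a lower vehicle ratio. Even with zotatifin its ratio was below the vehicle ratio of FOXO1.

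Of the 7 genes not chosen by their change, 6 passed the count filter in footprints and 0 of these were called at an adjusted p under 0.05 by edgeR's quasi-likelihood test, where 7.14% of all 9544 genes were called. An unadjusted p under 0.05 was reached by 1 of the 6 (PIK3CA), against 22.1% of all genes. DESeq2 gave an adjusted p for 1 of them and called 0 (8.12% of the genes it tested), with 0 at an unadjusted p under 0.05. In RNA all 7 were tested and 0 were called by edgeR, where 1.72% of 13118 genes were called (0.808% rising, 0.907% falling). An unadjusted p under 0.05 was reached by 3 of these 7, against 18.3% of all genes, and DESeq2 called 1 (IRS1), against 2.66% of the genes it tested. In TE 6 were tested and 0 called by edgeR, where 1.69% of 9454 genes were called, with 2 at an unadjusted p under 0.05 (PIK3CA and PIK3R1) against 15.3% of all genes. DESeq2 called 0 of the 4 with an adjusted p in TE (3% of the genes it tested), with 2 at an unadjusted p under 0.05.

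In footprints 3 of the 6 had a higher and 3 a lower estimate, with a median log2 change of −0.01 beside 0.0030 over all genes. In RNA the median was 0.09 (all genes −0.0023) and in TE −0.15 (all genes 0.016). The groups did not overlap in footprints for 2 of the 6 (IRS1 higher, PIK3CA lower), against 26.4% of all genes, 12.9% higher and 13.5% lower. They did not overlap in RNA for 2 of 7 (IRS1 and PIK3R1, both higher), against 23.1% of all genes, 12.3% higher and 10.9% lower. In the ratio of footprints to RNA they did not overlap for 3 of 6 (INSR higher, PIK3CA and PIK3R1 lower), against 26.3%, 10.7% higher and 15.6% lower. Counts of 0 to 3 members set nothing apart from these shares.

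**Figure D3:**
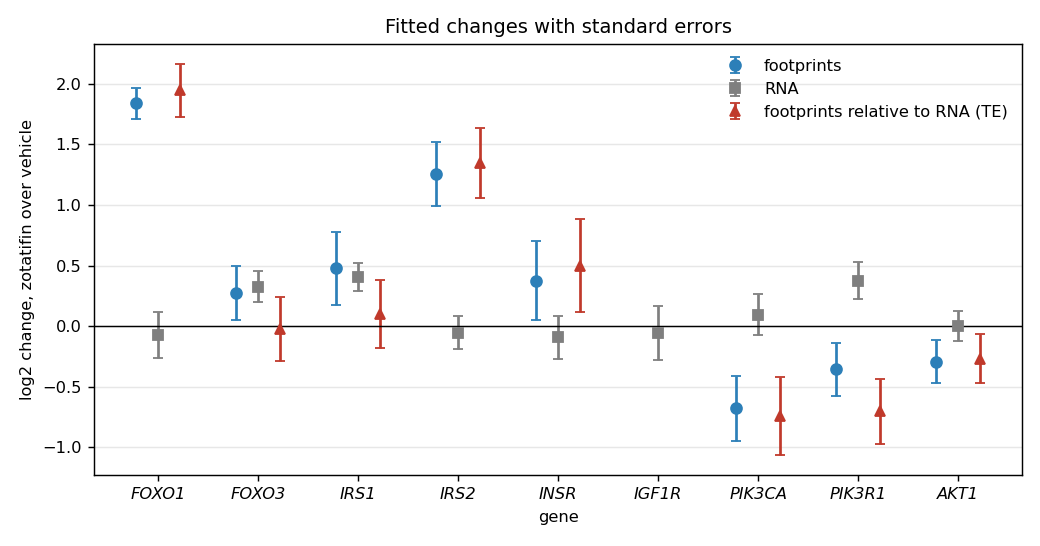
Fitted log2 change, zotatifin over vehicle, in footprints (circles), RNA (squares) and TE (triangles) for each of the 9 genes, with bars of 1 SE. FOXO1 and IRS2 stand at 1.84 and 1.25 in footprints, and the other genes lie between −0.74 and 0.50 on all 3 measures. IGF1R has an RNA value only.

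Among the receptors, INSR showed no change that passed the test. INSR encodes the insulin receptor (ENST00000302850, chromosome 19, 7112265 to 7294414). Its footprints stood at 7.86, 7.22 and 9.53 CPM with vehicle and at 10.4, 13.5 and 9.06 CPM with zotatifin, from 11 to 16 raw counts per library. The highest vehicle library exceeded the lowest zotatifin library, so the groups overlapped. INSR RNA ran from 24.6 to 36.0 CPM with vehicle and from 23.2 to 34.6 CPM with zotatifin. The log2 change was 0.38 ± 0.33 in footprints (edgeR adjusted p = 0.542), −0.09 in RNA (adjusted p = 0.837) and 0.50 ± 0.39 in TE (adjusted p = 0.574). The RNA estimate turned to 0.01 without vehicle replicate 1 and to 0.05 without zotatifin replicate 2.

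IGF1R, the receptor for IGF1 and IGF2, had too few footprints for a comparison (ENST00000268035, chromosome 15, 98648539 to 98964530). It had 8, 7 and 4 raw footprints in the vehicle libraries and 1, 3 and 0 in the zotatifin libraries, and did not pass the count filter. Its RNA stood at 19.9, 13.8 and 18.1 CPM with vehicle and at 21.0, 10.9 and 17.5 CPM with zotatifin. The RNA groups overlapped and the log2 change was −0.06 (edgeR adjusted p = 0.921). Without the filter, the footprint estimate was −1.54 ± 0.76 (adjusted p = 0.266). The RNA changes of the receptor pair differed by −0.03 ± 0.29 (INSR minus IGF1R, combined SE).

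IRS1 is the adaptor closest to IRS2 in sequence and role, with a major part in muscle and fat (ENST00000305123, chromosome 2, 226731312 to 226799820). IRS1 footprints stood at 8.85, 9.99 and 9.53 CPM with vehicle and at 12.1, 15.9 and 12.3 CPM with zotatifin. All zotatifin libraries were above all vehicle libraries, from 13 to 19 raw counts in each. The same held in RNA, which was measured at 92.7, 86.1 and 84.6 CPM with vehicle and at 119, 109 and 120.2 CPM with zotatifin.

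The log2 change of IRS1 was 0.48 ± 0.30 in footprints (edgeR adjusted p = 0.367), 0.41 ± 0.12 in RNA (adjusted p = 0.0775) and 0.10 in TE (adjusted p = 0.919). IRS1 RNA thus missed the threshold in edgeR, and it passed with DESeq2 (adjusted p = 0.041), without the count filter (0.043) and without zotatifin replicate 2 (0.045). Over all alternatives the adjusted p ran from 0.0414 to 0.222. The authors' deposited RNA table lists 0.41 with an adjusted p of 0.0422, a threshold of 0.05 that 2.47% of the 12661 genes in that table passed.

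The adaptor pair therefore differed in where the estimate lay. The TE change of IRS2 exceeded that of IRS1 by 1.24 ± 0.40 (combined SE), while its RNA change was lower by 0.46 (−0.46 ± 0.18). These differences include a gene chosen for its rise and were not tested. The ratio of footprints to RNA of IRS1 was 0.0955, 0.116 and 0.113 with vehicle and 0.102, 0.146 and 0.102 with zotatifin. The groups overlapped, and IRS1 was among the genes with the fewest footprints per RNA, since 1.07% of all genes had a lower vehicle ratio.

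The 5′ ends of the adaptor transcripts are shown because the leader is the part of the mRNA on which eIF4A works, and some eIF4A inhibitors of the rocaglate type are known to hold the helicase on runs of purines. The lines give 30 of the first 50 bases of each RefSeq transcript (GRCh38.p14, 5′ to 3′), with the longest run of A and G in capitals. IRS2 is read from chr13:109786549-109786578 on the minus strand and IRS1 from chr2:226799779-226799808 on the minus strand.
IRS2: tcactgtgcggcGGGGAccgcgacgagccc
IRS1: gctgccgagcgcGGAGGctccgtcacgtgt
The longest run was 5 bases in both, and 68.6% of 35116 RefSeq start windows have a run at least as long. The window covers only the start of the leader.

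PIK3CA encodes the catalytic subunit alpha of PI3K, often activated by mutation in cancer (ENST00000263967, chromosome 3, 179148126 to 179240093). Footprint levels were 28.5, 18.9 and 18.4 CPM with vehicle and 13.0, 11.04 and 16.2 CPM with zotatifin. All zotatifin libraries were below all vehicle libraries, though vehicle replicate 1 lay far above the other vehicle libraries. PIK3CA RNA stood at 28.9, 21.4 and 32.0 CPM with vehicle and at 29.5, 26.8 and 31.6 CPM with zotatifin, and the groups overlapped.

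The log2 change of PIK3CA was −0.68 ± 0.27 in footprints (edgeR adjusted p = 0.125), 0.09 in RNA (adjusted p = 0.817) and −0.74 ± 0.32 in TE (adjusted p = 0.255). With the tumour as a block, the adjusted p in TE was 0.094, the lowest of a range up to 0.601 over the alternatives. The ratio of footprints to RNA was 0.988, 0.880 and 0.576 with vehicle and 0.441, 0.412 and 0.511 with zotatifin. The direction of its estimate was opposite to that of FOXO1 and IRS2.

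PIK3R1 encodes the regulatory subunit that holds and stabilises the catalytic one (ENST00000521657, chromosome 5, 68215756 to 68301821). PIK3R1 footprints stood at 30.0, 23.9 and 37.5 CPM with vehicle and at 20.8, 25.8 and 24.6 CPM with zotatifin. These groups overlapped. PIK3R1 RNA stood at 27.3, 23.1 and 28.1 CPM with vehicle and at 37.0, 31.9 and 32.9 CPM with zotatifin. Here all zotatifin libraries were above all vehicle libraries.

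The log2 change of PIK3R1 was −0.35 ± 0.22 in footprints (edgeR adjusted p = 0.354), 0.38 ± 0.16 in RNA (adjusted p = 0.202) and −0.70 ± 0.27 in TE (adjusted p = 0.178). With the tumour as a block, the adjusted p in TE was 0.065, the lowest of a range up to 0.478. The ratio of footprints to RNA was 1.10, 1.03 and 1.33 with vehicle and 0.563, 0.807 and 0.746 with zotatifin, and the groups did not overlap. The authors' deposited TE table lists −0.82 for PIK3CA (FDR 0.0091) and −0.72 for PIK3R1 (FDR 0.0061), both past 0.05, where 18.3% of the 11446 genes in that table passed. Those log2 values lie close to the estimates from the summed counts. The call on both PI3K subunits thus differs between the authors' model and the edgeR fits.

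The start of the PI3K subunit transcripts is shown as for the adaptors, PIK3CA from chr3:179148371-179148400 on the plus strand and the first of 4 PIK3R1 starts from chr5:68215769-68215798 on the plus strand.
PIK3CA: cgctgcggccgctGAGGtgtcgggctgctg
PIK3R1: ggagcggagttGGAGGAAGcagcggcagcg
The longest purine run was 4 bases in PIK3CA (87.9% of all start windows have one as long) and 8 in this start of PIK3R1 (21%). The PIK3CA start shown, 179148357, is not the first base of the gene (179148126). Which start the tumours used is not known, and the window covers only the beginning of the leader.

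AKT1 encodes the kinase that PI3K activates and that phosphorylates FOXO1 (ENST00000349310, chromosome 14, 104769349 to 104795748). AKT1 footprints stood at 52.1, 41.1 and 44.5 CPM with vehicle and at 33.8, 33.1 and 43.3 CPM with zotatifin. The groups overlapped through zotatifin replicate 3. AKT1 RNA ran from 389 to 477 CPM with vehicle and from 414 to 444 CPM with zotatifin. The log2 change was −0.29 ± 0.18 in footprints (edgeR adjusted p = 0.344), 0.0037 in RNA (adjusted p = 0.990) and −0.27 ± 0.20 in TE (adjusted p = 0.560). AKT1 had, together with IRS1, the lowest vehicle ratio of footprints to RNA among the 8 genes, at 0.109, 0.0974 and 0.114, and 1.03% of all genes lay lower. The vehicle ratios of AKT1 and IRS1 overlapped.

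FOXO3, a close relative of FOXO1 and a second effector below AKT, had no called change (ENST00000343882, chromosome 6, 108559825 to 108684774). Its footprints stood at 29.5, 22.2 and 22.2 CPM with vehicle and at 21.7, 39.2 and 31.0 CPM with zotatifin. The zotatifin libraries lay on both sides of the vehicle libraries. FOXO3 RNA stood at 82.7, 71.7 and 89.0 CPM with vehicle and at 111, 88.2 and 107 CPM with zotatifin, so the groups overlapped by a narrow margin.

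The log2 change of FOXO3 was 0.27 ± 0.22 in footprints (edgeR adjusted p = 0.509), 0.33 ± 0.13 in RNA (adjusted p = 0.181) and −0.02 in TE (adjusted p = 0.979). The ratio of footprints to RNA was 0.357, 0.310 and 0.250 with vehicle and 0.196, 0.445 and 0.291 with zotatifin. The TE estimate of FOXO1 exceeded that of FOXO3 by 1.97 ± 0.34 (combined SE), and its RNA estimate was lower by 0.40 (−0.40 ± 0.23). As FOXO1 was chosen for its rise, this difference was not tested. With vehicle, FOXO3 also had the lower ratio, above 12.5% of all genes against 94.3% for FOXO1.

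**Figure D4:**
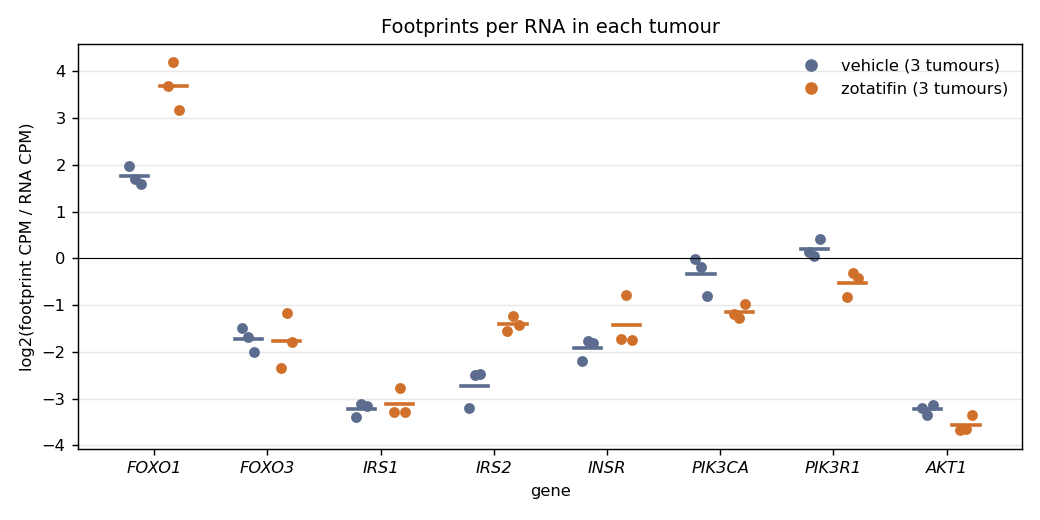
Log2 ratio of footprint to RNA CPM in each tumour for the 8 genes tested for TE (3 vehicle tumours in blue, 3 zotatifin tumours in orange, bars at the group means). FOXO1 and IRS2 lie higher with zotatifin, from different starting levels (ratios of 3.01 to 3.95 and 0.108 to 0.181 with vehicle), and PIK3CA and PIK3R1 lie lower with zotatifin.

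The starts of the FOXO transcripts are set side by side, since one of the FOXO3 starts has a long purine run and FOXO1 has nearly none. FOXO1 is read from chr13:40666612-40666641 on the minus strand and the first of 4 FOXO3 starts from chr6:108559825-108559854 on the plus strand.
FOXO1: gatcccgtAAGtcgggcggcctggtagtcg
FOXO3: gctcgtGGAAGGGAGGAGGAGGAAtgtgga
The longest run of purines was 3 bases in FOXO1, and 97.5% of all start windows have one as long. In this FOXO3 start the run was 18 bases, at bases 7 to 24, and 0.47% of all windows have one as long. The other 3 FOXO3 starts had runs of 3 to 7 bases. The median longest run over all windows was 5. This is a description of the first 50 bases, and nothing about drug binding follows from it.

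FOXO factors bind promoters at the letters GTAAACA, and the insulin response element has the related core CAAAACA. Both were searched on both strands in the 250 bases before each RefSeq start of the 9 genes, 16 windows in all. GTAAACA was found in 1 gene, PIK3CA, at chr3:179148197-179148226 (plus strand), 149 to 143 bases before the start used (−149 to −143), as its reverse complement in capitals. That start, 179148357, lies after the first base of the gene (179148126), so this stretch is within the annotated span of PIK3CA. CAAAACA was found in 1 gene, IRS2, at chr13:109786605-109786634 (minus strand), at −40 to −34, again as its reverse complement.
PIK3CA promoter: agttcgttgttTGTTTACacgatgtgagcg
IRS2 promoter: gagtcacatgtTGTTTTGctcttcttagtt
Of 35116 windows of this length, 2.98% hold GTAAACA and 4.30% hold CAAAACA. The RNA log2 change was −0.05 for IRS2 and 0.09 for PIK3CA, with overlapping groups for both. A match is not evidence of binding, and its lack says only that these letters are not in the window.

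Beyond the 9 genes, 6 lists of other pathway genes held 120 symbols, of which 119 were in the tables. In footprints 90 passed the filter, 1 rose and 10 fell by edgeR (12.2%, against 7.14% of all genes, with 3.22% rising and 3.92% falling). In RNA 107 were tested, 2 rose and 0 fell (1.87%, against 1.72%). In TE 90 were tested, 0 rose and 5 fell (5.56%, against 1.69% of all genes, 0.476% rising and 1.22% falling). The median log2 change was −0.05 in footprints, −0.05 in RNA and 0.00014 in TE, beside 0.0030, −0.0023 and 0.016 over all genes. With the tumour as a block the TE model called 1 rise and 12 falls among the 90, and 8.66% of all genes (3.62% rising, 5.05% falling). In the TE fit without the block, no gene of these lists moved in the direction of FOXO1 and IRS2 past the threshold. A log ratio of footprints to RNA per tumour, tested with limma, called 0 of the 5 TE falls, with adjusted p from 0.0714 (XPO1 and GSK3B) to 0.125 (USP7). The RNA libraries gave 0 calls in these lists without vehicle replicate 1, without vehicle replicate 3 or without zotatifin replicate 3, and the footprint libraries 3 without vehicle replicate 1 and 7 without zotatifin replicate 1. The TE count was 2 without any one of the vehicle tumours or zotatifin replicate 1.

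Proteins that handle FOXO accounted for 5 of the 10 falls in footprints. Of 16 tested members of the list of other FOXO factors and FOXO regulators, 5 fell in footprints and 3 in TE, where 3.92% and 1.22% of all genes fell, and of 17 tested in RNA 0 were called by edgeR. The list was chosen with earlier results of these data known, so these counts are a description and no test of the list. XPO1, the exportin that carries FOXO proteins out of the nucleus, had footprints of 420.2, 354 and 374 CPM with vehicle and 203, 174 and 223 CPM with zotatifin. Its groups did not overlap. XPO1 fell by 0.92 on the log2 scale in footprints (edgeR adjusted p = 7.2e-06) and by 0.94 in TE (adjusted p = 0.0019), both also called without any 1 library. Its RNA mean was 153 CPM with vehicle and 157 CPM with zotatifin.

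STK4, a kinase that phosphorylates FOXO and favours its entry into the nucleus, fell in footprints by 0.94 (edgeR adjusted p = 0.011). This call was lost without vehicle replicate 1 or zotatifin replicate 3. STK4 RNA was lower too, at 72.6, 51.6 and 51.5 CPM with vehicle and 46.2, 44.2 and 45.4 CPM with zotatifin. STK4 was not called in TE. USP7, a deubiquitinase that acts on FOXO proteins, fell by 0.44 in footprints (adjusted p = 0.014) and by 0.62 in TE (adjusted p = 0.0446). The footprint call was lost without vehicle replicate 1 or zotatifin replicate 1, and the TE call without any one tumour other than zotatifin replicate 2. Of the YWHA scaffold proteins that hold phosphorylated FOXO in the cytoplasm, YWHAB fell by 0.48 in footprints (adjusted p = 0.0065, lost without vehicle replicate 1). YWHAE fell by 0.37 in footprints (adjusted p = 0.022), which was lost without any one library other than zotatifin replicate 1. YWHAE also fell by 0.68 in TE (adjusted p = 0.018), which was lost without any one of the vehicle tumours or zotatifin replicate 1. With the tumour as a block, edgeR kept the TE calls on USP7 (adjusted p = 7.1e-04) and YWHAE (adjusted p = 9.6e-05). The limma log ratio per tumour called neither (adjusted p = 0.125 and 0.118). These members include both proteins that restrain FOXO and one that favours its nuclear entry.

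Of 22 tested AKT kinases, their regulators and substrates, 2 fell in footprints and 2 in TE, and 1 of 23 rose in RNA. Over all genes 3.92% fell in footprints, 1.22% fell in TE and 0.808% rose in RNA (7.14%, 1.69% and 1.72% called in either direction). A footprint count of 2 is too small to set the list apart from these shares. GSK3B, the kinase that AKT switches off in glycogen synthesis, had footprints of 89.4, 81.6 and 83.2 CPM with vehicle and 48.6, 35.6 and 55.6 CPM with zotatifin. All zotatifin libraries were lower. GSK3B fell by 0.82 in footprints (edgeR adjusted p = 0.0015), called without any 1 library as well. It fell by 0.92 in TE (adjusted p = 0.021), a call lost without any one of the vehicle tumours or zotatifin replicate 1 and kept with the tumour as a block (adjusted p = 1.5e-04).

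PPP2CA, the catalytic subunit of the phosphatase that dephosphorylates AKT, moved in opposite directions in the assays. Its footprints stood at 379, 377 and 342 CPM with vehicle and at 262, 283 and 294 CPM with zotatifin. Its RNA stood at 175, 180 and 178 CPM with vehicle and at 240, 262 and 233 CPM with zotatifin. PPP2CA footprints fell by 0.39 (edgeR adjusted p = 0.020), its RNA rose by 0.46 (adjusted p = 0.0446) and its TE fell by 0.82 (adjusted p = 0.0029). The TE call was also made without any 1 tumour. The footprint call was lost without vehicle replicates 1 or 2 or zotatifin replicate 1, and the RNA call without any one library other than zotatifin replicate 2.

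Among 11 receptor adaptors and receptor phosphatases, 1 fell in footprints, where 3.92% of all genes fell and 7.14% were called. A count of 1 sets nothing apart from these shares. The gene that fell was PTPN11, a phosphatase that carries receptor signals to RAS. PTPN11 footprints stood at 172, 157 and 153 CPM with vehicle and at 115, 93.2 and 109 CPM with zotatifin. They fell by 0.60 (edgeR adjusted p = 0.0031, called without any 1 library). The TE change of PTPN11 was −0.44 and was not called (edgeR adjusted p = 0.246).

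Of the receptors, ligands and binding proteins, 3 were tested in footprints and 5 in RNA, and 0 were called by edgeR without the block. DESeq2 called 1 fall in RNA, and so did edgeR with the replicate block, where the numbers do not pair tumours. The RNA median of this list was −0.49, and counts of fibroblast markers were lower in the same libraries, as given above; their part in that median was not tested.

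Among FOXO target genes, 1 rose and 1 fell of 26 tested in footprints, near the 7.14% called among all genes. Of 28 tested in RNA 1 rose (1.72% of all genes were called), and of 26 tested in TE 0 were called by edgeR (1.69%). The median log2 change was 0.04 in footprints, −0.08 in RNA and 0.02 in TE. TXNIP, an inhibitor of thioredoxin and of glucose uptake, had RNA of 302, 330.0 and 315 CPM with vehicle and 405, 540.5 and 511 CPM with zotatifin. All zotatifin libraries were higher. TXNIP rose by 0.62 in RNA (edgeR adjusted p = 0.018) and by 0.36 in footprints (adjusted p = 0.041). The RNA call was lost without vehicle replicates 1 or 3 or zotatifin replicate 3, and the footprint call without vehicle replicates 1 or 2 or zotatifin replicates 2 or 3. BNIP3, a mitophagy receptor, fell by 0.63 in footprints (edgeR adjusted p = 0.028). This call was lost with DESeq2 (adjusted p = 0.070, over all alternatives 0.0063 to 0.158) and without any one library other than vehicle replicate 2 or zotatifin replicate 3. BNIP3 RNA was lower too, at 84.6, 80.7 and 95.0 CPM with vehicle and 60.1, 78.2 and 74.3 CPM with zotatifin. CDKN1A and CDKN1B, inhibitors of the cell cycle that FOXO factors are known to induce, had RNA changes of −0.09 (adjusted p = 0.755) and 0.27 (adjusted p = 0.273), and these genes were picked after their values were seen.

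**Figure D5:**
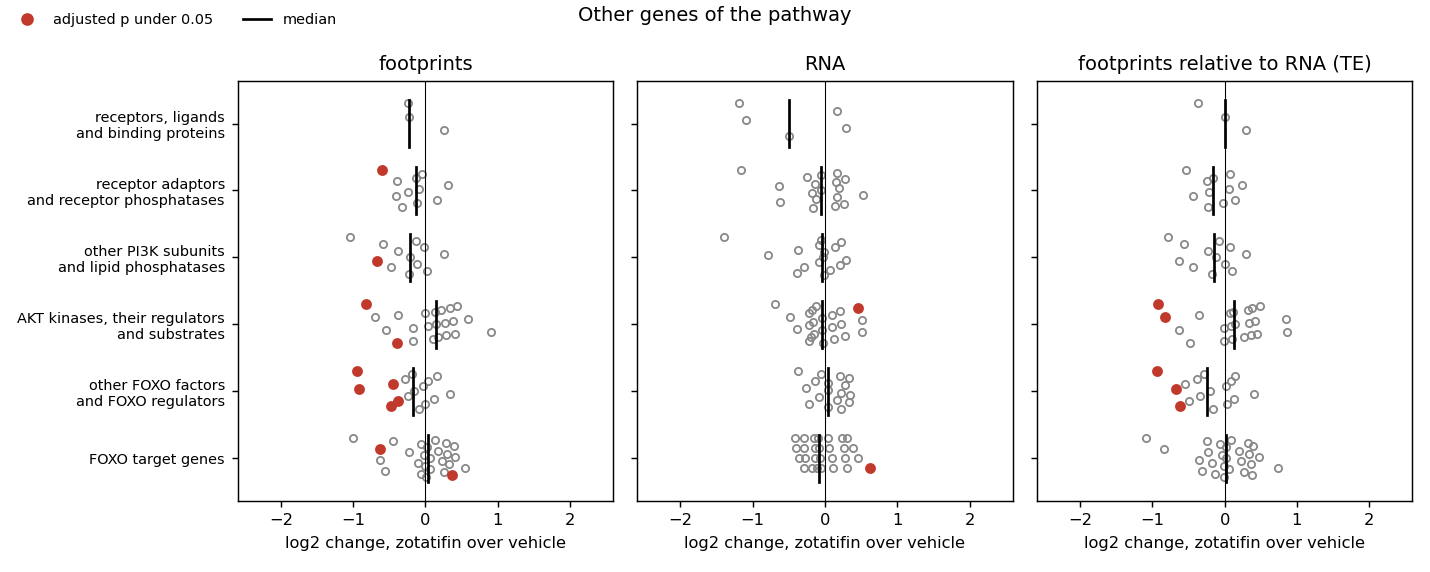
Log2 change of each tested gene of the 6 pathway lists in footprints, RNA and TE, with genes at an edgeR adjusted p under 0.05 filled in red, the others open, and a bar at the median of each list. Of the 10 called falls in footprints 5 are FOXO regulators, and the FOXO target genes lie around 0 with medians of 0.04, −0.08 and 0.02.

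The genes whose profile over the 12 libraries was most like that of FOXO1 were found by the root mean square difference of log2 levels, each library taken against the vehicle mean of its assay, among 7609 genes. They were IFFO2 (0.278), CARM1 (0.281), HOXC12 (0.305), SNTB1 (0.400) and AMMECR1 (0.404), where the median gene stood at 0.947. Their TE changes were 1.29, 1.504, 1.28, 1.07 and 1.39, each below that of FOXO1. Nearest to IRS2 were AVEN (0.162), PLEKHA7 (0.201), EVPL (0.215), SNTB1 (0.224) and FBXL17 (0.230), with a median gene at 0.617. FOXO1 and IRS2 differed from each other by 0.411, more than either did from its 5 nearest genes, though close to the 0.404 between FOXO1 and AMMECR1. The remaining members tested for TE differed from FOXO1 by 0.748 (IRS1) to 1.25 (PIK3CA). From IRS2 they differed by 0.427 (INSR) to 0.912 (PIK3CA), with IRS1 at 0.442. Several of these neighbours also have a smaller TE change in the authors' deposited table than in the counts, with gaps of 1.35 for CARM1, 1.11 for AMMECR1, 0.87 for FBXL17 and 0.69 for IFFO2. The libraries share their depth and their tumours across all genes, so this likeness is a description and says nothing of shared control.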

How the data were processed

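The deposited tables hold raw counts per transcript for 6 RNA and 6 footprint libraries. The authors' RNA table has a mean signal in normalised counts, a log2 fold change with its standard error, a Wald score and a p-value. The authors' TE table has a model estimate, deposited on a scale that the values show to be natural log, and an FDR, an adjusted p-value. Over 1566 genes with a mean above 200 counts, a regression of it gave 0.665 per log2 unit of footprints and −0.666 per log2 unit of RNA (natural log of 2, 0.693). Per the submitters' processing notes, reads were handled with Bowtie2 2.3.5, cutadapt 2.3 and UMI-tools, the build was hg38, and DESeq2 was used. Strand setting and counted region are not stated in the labels or headers, so reads of overlapping or antisense genes may not be told apart.

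The treatment field of 6 of 12 samples contradicts the title. Titles and column names were used, with the code number in the columns read as zotatifin. To see which libraries share a tumour, the mean of its group was subtracted from each gene, and the remaining deviations were correlated. Footprint deviations correlated with RNA deviations at 0.217 to 0.440 where treatment and number matched (6 pairs, 4889 genes averaging 50 counts or more). Where only the treatment matched, the values were −0.381 to 0.119. Deviations cancel out within a group, which lowers the latter values when the former are positive, so this contrast is partly built in. Numbers were taken to mark tumours within a treatment. Between vehicle and zotatifin libraries that share a number, such deviations correlated at −0.0946 to 0.181, and these libraries were not treated as pairs.

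Tests used R 4.3.3, edgeR 4.0.16 (filterByExpr, minimum count 10, minimum total 15, TMM, robust quasi-likelihood F test), with Benjamini-Hochberg adjusted p under 0.05 over all genes tested as a call. SE is the log2 change over the root of F. TE was the interaction of assay and treatment over 12 libraries. DESeq2 1.42.0 and limma 3.58.1 (log ratio with prior count 2) were alternatives, as were RLE scaling, no filter, a replicate block and leaving out each library. Scripts were tested on simulated data. Members and lists were chosen with earlier results of these data known. Beside the members, genes were named by size of change, up to 4 called genes per list averaging 20 counts or more, and as the 5 nearest profiles. Outside this rule, the genes with the 5 largest gaps to the authors' deposited TE table were named. CDKN1A and CDKN1B, which were not called, were picked after their values were seen. Of 19027 symbols 18953 matched RefSeq, from which GRCh38.p14 positions and start windows were taken. No 2 libraries held identical values. Of the called genes in the pathway lists, 1 is not reported here.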

Additional observations from a re-analysis of the deposited data

How the results depend on the processing

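FOXO1 kept a footprint change of 1.74 to 1.96, an RNA change of −0.21 to 0.06 and a TE change of 1.71 to 2.20 over all alternatives, and IRS2 1.06 to 1.40, −0.12 to 0.07 and 1.11 to 1.47. Every alternative refits the same summed counts, so none bears on the smaller TE change of FOXO1 in the authors' deposited table (0.27). The differences within the FOXO, IRS and receptor pairs moved by less than their combined SE under every alternative. Calls over all genes were 681 in footprints, 416 with DESeq2 and 185 to 726 leaving out 1 library. They were 225 in RNA, 624 without the filter and 11 to 396 leaving out 1 library. In TE they were 160, 11 with the limma log ratio and 56 to 132 leaving out 1 tumour. The lowest count came without vehicle replicate 1 in each of the 3 comparisons, and leaving out vehicle replicate 3 or zotatifin replicate 1 (for RNA and TE also vehicle replicate 2 or zotatifin replicate 3) moved a count by over 1.5 times as well. Of the 7 members not chosen by their change, 1 (IRS1) was called in RNA with DESeq2 and without the filter, and 0 to 1 leaving out 1 library. Their calls in footprints and TE were 0 under every alternative run. Leaving out 1 library, pathway genes called were 3 to 11 in footprints (11 with all libraries; 12 without the filter and with the replicate block, 9 with DESeq2). They were 0 to 3 in RNA (2 with all libraries; 4 with DESeq2, 6 without the filter) and 2 to 5 in TE (5 with all; 0 with the limma log ratio).

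With the replicate block, RNA calls over all genes were 527 and pathway genes called in RNA 5, where the numbers do not pair tumours. In TE, where the block is the tumour, calls were 819 and pathway genes called 13. The block changed no call on a member.

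Estimates of members that were not called changed sign as follows. AKT1 RNA was −0.0027 with RLE scaling and −0.0619 to 0.0821 leaving out 1 library. Leaving out 1 library gave −0.23 to 0.0528 for INSR, −0.28 to 0.16 for IGF1R and −0.0508 to 0.22 for PIK3CA in RNA. In TE it gave −0.27 to 0.23 for FOXO3 and −0.0417 to 0.19 for IRS1. The causes were not tested. Footprint counts of 9 to 61 per library limit FOXO3, IRS1, IRS2, INSR, PIK3CA and PIK3R1.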
